A study of Mus musculus with 4 samples.

Results

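Cytosolic ribosomal protein genes were followed between Cdx2+/- Cdx4-/- mutant and wildtype mouse embryos. The members are the probes of an Agilent whole mouse genome array whose gene name begins with Rpl or Rps and a digit, or is Rplp0, Rplp1 or Rplp2, with the Rps6k kinases left out. This rule uses names only and gave 135 of the 41174 non-control probes, under 81 of 27845 gene names. Of these, 130 probes (80 gene names) were bright enough to be tested, among 21852 tested probes in all. The rule also takes in Rps19bp1, which encodes a protein that binds Rps19 and is no part of the ribosome. It leaves out Rpsa and the probes that the array names Arbp, an old name of Rplp0. Rpl34 and Rpl39l, which the array lists under other names, are left out as well. Unless stated otherwise, the tested probes of these left-out genes count among the other probes, so that set is not free of ribosomal protein genes.

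The mutant embryos carried 1 wildtype copy of Cdx2 and no functional copy of Cdx4, and the wildtype embryos carried both genes intact. Embryos had 5 to 6 somites. The tissue behind the last somite boundary was taken, and 10 embryos per genotype were pooled, per the labels. Each of the 4 arrays received both RNAs, mutant in one dye (Cy3 or Cy5) and wildtype in the other, and the labels name them as 2 replicates with a dye swap each. Arrays 1 and 2 are the labelled replicate 1 and its dye swap, and arrays 3 and 4 the labelled replicate 2 and its dye swap. Separate pools for the replicates are not mentioned in the labels, so p-values cover the variation among these hybridisations alone, and that variation may be technical.

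The cytosolic ribosome is built of a small subunit, whose proteins are named Rps, and a large subunit, whose proteins are named Rpl. Rplp0, Rplp1 and Rplp2 form the stalk of the large subunit, which recruits translation factors. Ribosomal protein mRNAs are among the most abundant mRNAs of growing embryonic tissue. They begin with a terminal oligopyrimidine tract, a run of C and T bases at the 5′ end through which growth signalling by mTOR adjusts their translation. In mice, loss of 1 copy of some of these genes gives specific defects, as in the tail and axial skeleton of Rpl38 and Rpl24 mutants, and free Rpl5 and Rpl11 can stabilise p53.

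The pyrimidine run is shown for 7 members, 4 with a probe that passed the test below and 3 without (Rps6, Rpl38 and Rpl7a), since a pyrimidine tract is the sequence feature these mRNAs are known for. Each line gives 30 bases, 5′ to 3′ in the gene's direction, around the longest run of C and T within 50 bases of an annotated RefSeq start (GRCm38.p6), with the run in capitals. Rps21 has 2 annotated starts and Rpl35a 3, and the start with the longest run was taken. Rpl21, which also has a probe that passed, is not shown.
Rps3a (Rps3a1 in RefSeq), chr3:86142623-86142652, minus strand: acgtagacggcgCTCCCCgcccggctcgcg
Rps21, chr2:180257399-180257428, plus strand: ggaggcacgagctaCTTCCTTTCTgcgctc
Rpl35a, chr16:33056468-33056497, plus strand: cggggcttgCCTTCCTCTTTCCgccatctt
Rpl11, chr4:136053358-136053387, minus strand: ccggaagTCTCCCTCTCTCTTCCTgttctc
Rps6, chr4:86857349-86857378, minus strand: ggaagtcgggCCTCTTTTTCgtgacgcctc
Rpl38, chr11:114668568-114668597, plus strand: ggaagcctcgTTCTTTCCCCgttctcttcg
Rpl7a, chr2:26910788-26910817, plus strand: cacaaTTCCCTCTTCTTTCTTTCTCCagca
The run was 6 bases long in Rps3a, 10 in Rps21, Rps6 and Rpl38, 13 in Rpl35a, 17 in Rpl11 and 21 in Rpl7a. Counting the first transcribed base as 1, it began at base 29 in Rps3a, 35 in Rps21, 25 in Rpl35a and 14 in Rpl11, and at -1 in Rps6, -2 in Rpl38 and -14 in Rpl7a. Whether a run is the 5′ end of the mRNA was not tested.
RefSeq starts were matched for 60 of the 80 ribosomal protein genes (Rps19bp1 left out), with 71 starts. A run of at least 8 C or T bases on the gene's strand within 50 bases of the start was found at 56 of these starts (78.9%), against 35.7% of all 32851 starts in the table. The letters CCGGAAG, on either strand of the 300 bases from 250 before the start, were found at 24 of the 71 starts (33.8%), against 8.86% of all starts. These matches are descriptions of the sequence.

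The labelled directions of the arrays opposed each other, so the arrays were turned until the probe of Cdx4, the gene mutated on both alleles, was negative on each. The turned value is called the aligned ratio (log2). It has the sign of mutant over wildtype by the labels of arrays 1 and 4, and the opposite sign by the labels of arrays 2 and 3. The Cy5 over Cy3 ratios of arrays 1 and 3, which the labels give the same dye orientation, correlated at -0.43 over 21793 probes, those of arrays 1 and 2, labelled as a dye swap, at 0.82, and those of arrays 3 and 4, also a labelled swap, at 0.87. The labels thus leave the direction unsettled, and in every count below higher and lower change places if the sign is turned. Cdx4 lay at -2.59, -2.11, -2.82 and -2.42 on arrays 1 to 4, its sign being fixed by this choice, and whether its probe lies in the mutated part was not examined here. The Cdx2 probe, which was not used to turn the arrays, lay at -0.77, -0.50, -0.45 and -0.45 (adjusted p = 0.00201, limma). The share of spots well above background was 50.6% to 56.4% in Cy3 and 58.9% to 64.9% in Cy5.

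After loess normalisation within arrays, ribosomal protein mRNA levels differed little between the genotypes. Loess follows the ratio along intensity, so it can also remove a shift shared by many very bright probes. With median centring in its place the members' median was 0.69, against 0.23 for all tested probes. It then lay 0.14 above that of other probes of equal brightness. The values below are those with loess, unless stated otherwise. The median aligned ratio of the 130 tested probes was 0.05, with quartiles of 0.00 and 0.10, and the median of all tested probes was 0.01. An aligned ratio within 0.2 of 0 was found for 113 of 130 probes (86.9%), against 81.8% of all tested probes. In limma's fit on the labelled replicates (Benjamini-Hochberg adjustment over all tested probes, threshold 0.05), 3 of 130 probes were higher (2.31%) and 2 lower (1.54%). In the same fit 5.65% of all tested probes passed, 2.32% higher and 3.33% lower, so the share of the members is near the background. Of the 85 members with a mean log2 intensity of 15 or more 0 passed, against 4.42% of other probes as bright. By the sign of Cdx4, arrays 1 and 2 hold the mutant in one dye and arrays 3 and 4 in the other. A dye effect of a probe therefore enters its standard error (SE) in this fit and makes the probe less likely to pass. The SE was 0.24 for Rpl41, a bright member, and 0.09 for the brightest Rpl31 probe, which is dimmer. The 5 probes that passed were those of Rpl35a, Rps21, Rpl21, Rps3a and Rpl11, which were chosen for naming after their values were seen.

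With the brightest probe of each gene alone, fitted and adjusted over genes, 0 of 79 ribosomal protein genes passed, against 7.73% of all genes, and 4 of the 79 had an unadjusted p under 0.05. None of the 5 probes that passed was the brightest of its gene. The count depended on how arrays were paired into replicates. With pairs that balance the dyes (arrays 1 and 3, arrays 2 and 4), 23 probes were higher and 9 lower, 24.6% of the members against 37.5% of all tested probes (19.4% higher, 18% lower). With arrays 1 and 4 and arrays 2 and 3 as pairs, 43 were higher (33.1%) and 9 lower (6.92%), 40% of the members. Of all tested probes 50.3% passed with these pairs, 26.6% higher and 23.7% lower. With a dye term fitted over the 4 arrays, 26 of 128 were higher and 8 lower, 26.6% against 42.2% of all (22.3% higher, 19.9% lower). With the arrays turned as labelled 0 members passed, against 0.156% of all. Among members with a mean log2 intensity of 15 or more, 10.6% passed with the first balanced pairs (arrays 1 and 3, arrays 2 and 4), 28.2% with arrays 1 and 4 and arrays 2 and 3 as pairs, and 10.7% with the dye term. The other probes as bright passed in 34.4%, 47% and 37.2%. Below, the balanced pairs are arrays 1 and 3 with arrays 2 and 4. With one probe a gene, the balanced pairs called 10 of 79 genes higher and 3 lower (41.8% of all genes passed), and the dye term 11 of 77 higher and 2 lower (46.5%). With the balanced pairs nearly all probes share a standard error of 0.05, which leaves out any spread between the labelled replicates.

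Single arrays showed much more. On array 1 the median of the members was 0.32, with a highest value of 1.22, and on array 2 the median was 0.20. On arrays 3 and 4 the medians were -0.12 and -0.17, with lowest values of -0.82 and -1.09. The labelled replicates therefore had opposite medians, 0.25 and -0.15, which average to the small value above (SD 0.28, n = 2). All tested probes had medians of -0.01, 0.04, -0.02 and 0.00 on the same arrays. The aligned ratio kept 1 sign on all 4 arrays for 29 of 128 member probes (22.7%), 23 of them above 0, against 42% of all probes.

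**Figure D1:**
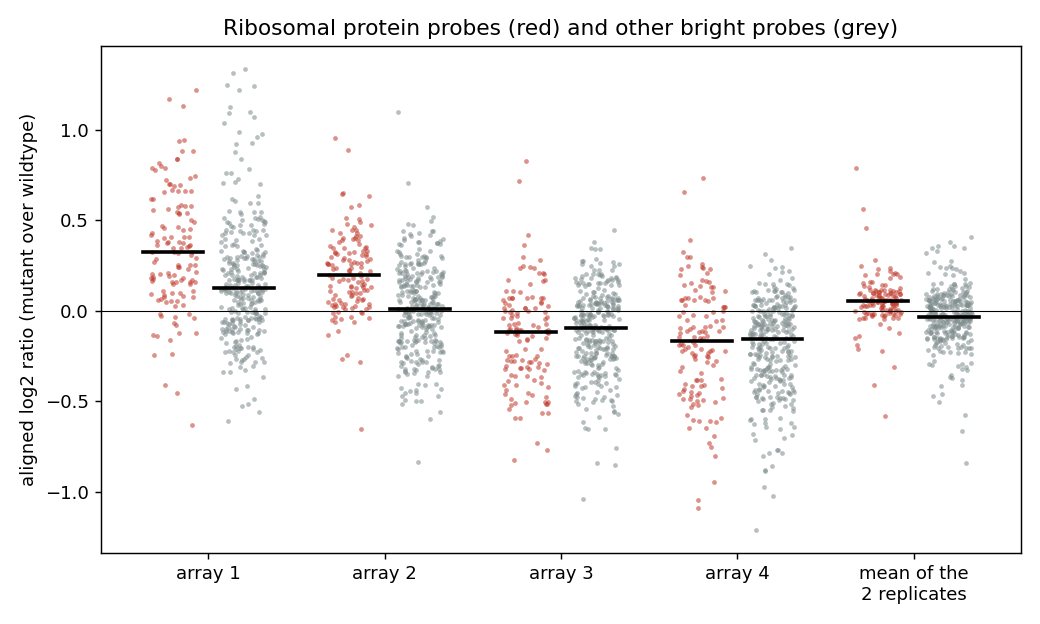
Aligned log2 ratio of the tested ribosomal protein probes (red) and of the 317 other tested probes with a mean log2 intensity of 15 or more (grey) on each array and averaged over the 2 labelled replicates. The grey probes include those of Rpl34 and Arbp, which the naming rule leaves out. Black lines are medians; the ribosomal protein probes lie above 0 on arrays 1 and 2 (medians 0.32 and 0.20), below 0 on arrays 3 and 4 (-0.12 and -0.17), and near 0 in the mean (0.05).

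The size of this alternation differed with the brightness of the spot. Without turning any array, Cy5 exceeded Cy3 on all 4 arrays for 74 of 128 member probes (57.8%), against 13.2% of all probes. Among probes with a mean log2 intensity of 15 or more it was so for 69 of 84 members (82.1%) and for 120 of 317 others (37.9%). The mean Cy5 over Cy3 ratio of the 4 arrays, here the dye component, had a median of 0.19 in the members. It rose with the mean log2 intensity of the probe, from 0.09 between 15 and 16 to 0.27 between 16 and 17 and 0.56 between 17 and 18. The other probes of these bands had medians of 0.02, 0.21 and 0.44. They include the Rpl34 and Arbp probes, which the naming rule leaves out. Since arrays 1 and 2 form one labelled replicate and arrays 3 and 4 the other, a dye effect and a difference between replicates cannot be told apart for any single probe.

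The scanner files carry a flag for spots read at the low gain setting and scaled up. It was set in Cy5 for 108 to 110 of the 144 member spots per array, against 1.97% to 2.44% of other spots, and in Cy3 for 96 to 98 member spots. At most 1 member spot per array was saturated. The part of this scaling in the dye component was not tested. With the scanner's own dye normalisation in place of loess, the median dye component of the members was 0.06 and their median aligned ratio 0.09. The other probes with a mean log2 intensity of 15 or more had a median dye component of 0.10 with loess and -0.03 with the scanner's normalisation, so they fell as well.

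The aligned ratio itself did not follow brightness in this way. Its median in the members was 0.05, 0.04 and 0.05 in the 3 bands from 15 to 18, and the other probes of these bands had medians of -0.03, -0.05 and 0.04. The spread of the members was narrower than that of the others from 12 to 17, but not below or above. In the 3 bands from 15 to 18 their interquartile range was 0.09, 0.09 and 0.08, against 0.18, 0.17 and 0.06 in the others. The brightest of these bands held 30 members and 26 others. Between 12 and 15 the range was 0.12 against 0.19, and below 12 it was 0.20 against 0.18. Over 10 brightness classes, the members' median lay 0.05 above that of other probes of equal brightness, 0.28 above it in labelled replicate 1 and at -0.15 relative to it in replicate 2 (SD 0.30, n = 2). That difference of 0.05 is smaller than the SD between replicates. After turning, the 2 replicates differ in dye orientation, so this SD also holds any dye effect. A dye effect and a replicate difference cannot be told apart in it.

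**Figure D2:**
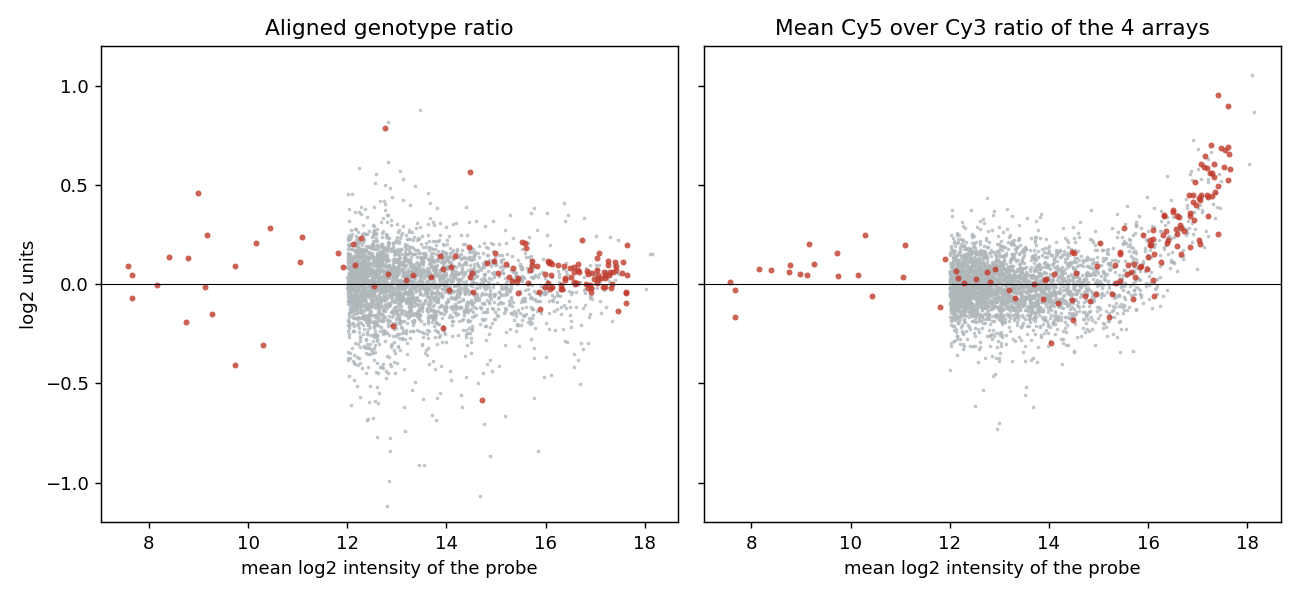
Aligned log2 ratio (left) and mean log2 ratio of Cy5 over Cy3 over the 4 arrays (right) against mean log2 intensity, for the tested ribosomal protein probes (red) and the 2942 other tested probes of intensity 12 or more (grey); 3 grey points lie beyond 1.2 log2 units on the left. The red points stay near 0 on the left and climb on the right, to a median of 0.56 at intensities of 17 to 18. The grey points include the probes of Rpl34 and Arbp and the brighter Rpsa probe, which the naming rule leaves out.

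Large subunit proteins (68 probes) had a median aligned ratio of 0.05, with quartiles of 0.00 and 0.10. By the brightest probe of each gene, Rpl31, a protein of the rim of the peptide exit tunnel, had the largest increase among genes with the same sign on all 4 arrays, with 0.24, 0.23, 0.21 and 0.25. Its mean of 0.23 (SE 0.09, adjusted p = 0.189, limma) did not pass on the labelled replicates, and the balanced pairs gave an adjusted p of 5.43e-05 (limma). Rpl24, whose mutation causes the Belly spot and tail phenotype, had 0.38, 0.12, 0.07 and 0.06, a mean of 0.16 (adjusted p = 0.442, limma; 0.00867 with the balanced pairs). Rpl14 was the only gene below 0 on all 4 arrays by its brightest probe, with -0.13, -0.27, -0.21 and -0.28, a mean of -0.22 (SE 0.09, adjusted p = 0.219, limma; 1.34e-04 with the balanced pairs). The dye component of Rpl31 was 0.01 and that of Rpl14 0.02. Both genes were picked for the same sign on all 4 arrays, which excludes the alternation of the brighter members. Its absence here follows from that choice.

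Rpl38, whose loss causes the Tail short phenotype, had 0.59, 0.35, -0.32 and -0.49 and a mean of 0.03 (SE 0.14, adjusted p = 0.963, limma). Rpl5, a partner of the 5S ribosomal RNA, had 0.67, 0.42, -0.50 and -0.57 and a mean of 0.00 (SE 0.16). The brightest Rpl11 probe had 0.88, 0.30, -0.77 and -0.80 and a mean of -0.10 (SE 0.19, adjusted p = 0.884, limma). For these 3 genes arrays 1 and 2 were high and arrays 3 and 4 low, without overlap, which the mean cancels. Rpl41, the smallest ribosomal protein, had the largest dye component of all members, 0.95, from 1.17, 0.96, -0.73 and -0.95. Its mean was 0.11 (SE 0.24, adjusted p = 0.896, limma). The opposite was seen for Rpl4, at -0.41, -0.24, 0.30 and 0.24, a dye component of -0.30 and a mean of -0.03. Rpl41 and Rpl4 were chosen after their values were seen.

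Other large subunit genes on the fixed list lay close to 0. Rpl3, a core protein near the peptidyl transferase centre, had a mean of -0.02, and Rpl7, which binds large subunit RNA, a mean of 0.03. Rpl10, which joins late in large subunit maturation, had 0.05 by its brighter probe, which the scanner files place on chromosome 13, and 0.10 by its other probe, on chromosome X. Rpl39, a protein of the exit tunnel, had 0.11 and Rpl10a 0.11, neither past the threshold in the labelled replicates (adjusted p = 0.702 and 0.670, limma). Rpl22 stood at 0.00 and Rpl36a at 0.02.

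Small subunit proteins (51 probes) had a median of 0.06, with quartiles of 0.00 and 0.12. Rps26, which lies at the mRNA exit channel, had 0.35, 0.21, 0.11 and 0.06, a mean of 0.18 (SE 0.10, adjusted p = 0.356, limma; 0.00205 with the balanced pairs). Rps15, an assembly protein of the small subunit head, had 0.10, 0.02, 0.21 and 0.23, a mean of 0.14 (adjusted p = 0.513, limma; 0.0211 with the balanced pairs). Both genes were above 0 on all 4 arrays, and neither passed on the labelled replicates. Rps6, the substrate of the S6 kinases, had 0.16, 0.06, -0.04 and -0.12 and a mean of 0.02 (SE 0.10). Rps19, mutated in Diamond-Blackfan anaemia, had 0.50, 0.28, -0.40 and -0.46 by its brightest probe and a mean of -0.02.

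The remaining small subunit genes of the list had means between -0.03 and 0.10. Rps20 had 0.06, Rps14 -0.01, Rps27 0.06, Rps25 0.10, Rps4x 0.03 and Rps27a, which is made fused to ubiquitin, -0.03. None passed on the labelled replicates. Rps18 and Rps16, chosen after their values were seen, had large dye components of 0.90 and 0.66. Rps18 had 1.13, 0.59, -0.82 and -1.05 by its brightest probe and a mean of -0.04. The Rps16 probe had 1.22, 0.49, -0.49 and -0.43, a mean of 0.20 (SE 0.18, adjusted p = 0.669, limma; 7.12e-04 with the balanced pairs). The values of arrays 1 and 2 lay above those of arrays 3 and 4 for both genes, with no overlap.

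The stalk protein Rplp0 gives the spread between spots of an array. Its probe was spotted 10 times on each array, and the aligned ratio was -0.01, -0.11, 0.28 and 0.25 on arrays 1 to 4. The SD between the 8 or 9 spots used was 0.14, 0.07, 0.06 and 0.04. The gap between arrays 1 and 2 and arrays 3 and 4 was thus larger than the spread between spots of an array. Its mean was 0.10 (SE 0.10, adjusted p = 0.714, limma). The brighter Arbp probes of the same gene ran the other way, 0.61, 0.21, -0.25 and -0.48 for one and 0.71, 0.44, -0.44 and -0.47 for the other, with means of 0.02 and 0.06. Rplp1 had 0.95, 0.63, -0.52 and -0.61 and a mean of 0.11 (SE 0.19). Rplp2 had 0.66, 0.29, -0.54 and -0.59 and a mean of -0.05 (SE 0.16). The means of all 3 stalk genes lay within 1 SE of 0.

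Several members have a paralog that can take their place in the ribosome or is expressed in particular tissues. Rpl22l1, the paralog of Rpl22, had 0.33, 0.18, 0.17 and 0.14 by its brighter probe, a mean of 0.21 (SE 0.09, adjusted p = 0.270, limma; 4.52e-04 with the balanced pairs). Its dimmer probe had a mean of 0.04. Rpl36al, the paralog of Rpl36a, had 0.15, 0.06, 0.07 and 0.02 and a mean of 0.07 (adjusted p = 0.792, limma). Rps27l, a paralog of Rps27 and a p53 target, had a mean of -0.04 (SE 0.10). Rpl7l1 had a mean of -0.01 by its brighter probe and 0.28 by its dimmer probe (adjusted p = 0.10, limma; 6.02e-07 with the balanced pairs). Rpl3l, the muscle paralog of Rpl3, was not well above background and was not tested. The other untested probes were 1 each of Rps19, Rps2, Rpl35a and Rps6, whose other probes were tested.

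In the 5 genes with a called probe, another tested probe of the gene did not pass on the labelled replicates. Of 39 genes with more than 1 tested probe, the probes differed by a median of 0.12, by less than 0.1 in 18 genes and by more than 0.3 in 5. Positions below are those of the scanner files (mm8), and exon annotation for that build was not used here. The Rpl35a probe A_52_P288669 (chromosome 16, 32977256 to 32978456) had 0.82, 0.89, 0.72 and 0.73, a mean of 0.79 or 1.73-fold (SE 0.10, adjusted p = 5.05e-05, limma). Probe A_51_P509107 of the same transcript (32977241 to 32978436) overlaps its span almost completely and is brighter. It had 0.11, 0.13, -0.32 and -0.42, a mean of -0.12 (adjusted p = 0.659, limma). With the balanced pairs and with the dye term it passed as lower (adjusted p = 0.0465 and 0.0213, limma), so that the probes of this gene were called in opposite directions. Rpl35a is a large subunit protein mutated in Diamond-Blackfan anaemia, and the probe that passed was the higher of the pair on every array.

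Rps3a, a small subunit protein, had the largest decrease. Probe A_51_P292357 (chromosome 3, 86224032 to 86224463) had -0.63, -0.65, -0.56 and -0.49, a mean of -0.58, 1.5-fold lower (SE 0.10, adjusted p = 9.93e-04, limma). The brighter probe A_52_P49886 (86223873 to 86223897) had 0.03, -0.05, 0.00 and -0.09, a mean of -0.02 (adjusted p = 0.951, limma). The first probe was the lower on every array.

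In Rps21, another small subunit protein, probe A_52_P740562 (chromosome 2, 180187787 to 180187846) had 0.41, 0.36, 0.83 and 0.66, a mean of 0.56 or 1.48-fold (SE 0.10, adjusted p = 0.00266, limma). Probe A_52_P678800, whose position overlaps it (180187769 to 180187828), had a mean of 0.16, and the brightest probe A_51_P489959 had -0.02. Both missed the threshold (adjusted p = 0.465 and 0.973, limma). In Rpl21, probe A_52_P653937 (chromosome 5, 147147040 to 147147099) had 0.54, 0.48, 0.42 and 0.39, a mean of 0.46 or 1.37-fold (SE 0.09, adjusted p = 0.00678, limma). Its partner A_52_P258959, measured on 3 arrays since its spot on array 1 was an outlier, had 0.43, 0.02 and 0.07 on arrays 2 to 4, a mean of 0.24 (adjusted p = 0.244, limma; 0.0316 with the balanced pairs). For Rpl21 both probes were above 0.

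In Rpl11, probe A_52_P566208 (chromosome 4, 135322118 to 135322177) had -0.46, -0.28, -0.42 and -0.48, a mean of -0.41, 1.33-fold lower (SE 0.09, adjusted p = 0.0139, limma). It was taken from a cDNA clone, and its mean log2 intensity was 9.74, against 17.6 for the RefSeq probe A_51_P394524 with its mean of -0.10. Levels of different probes cannot be compared, but both intensities bear on the weight of each probe's ratio. Without array 1, the Rps21, Rpl21 and Rpl11 probes missed the threshold (adjusted p = 0.0822, 0.0852 and 0.152, limma), and the counts fell to 1 probe higher and 1 lower. All 5 probes had the same sign on all 4 arrays, so leaving out 1 array could not turn their direction.

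**Figure D3:**
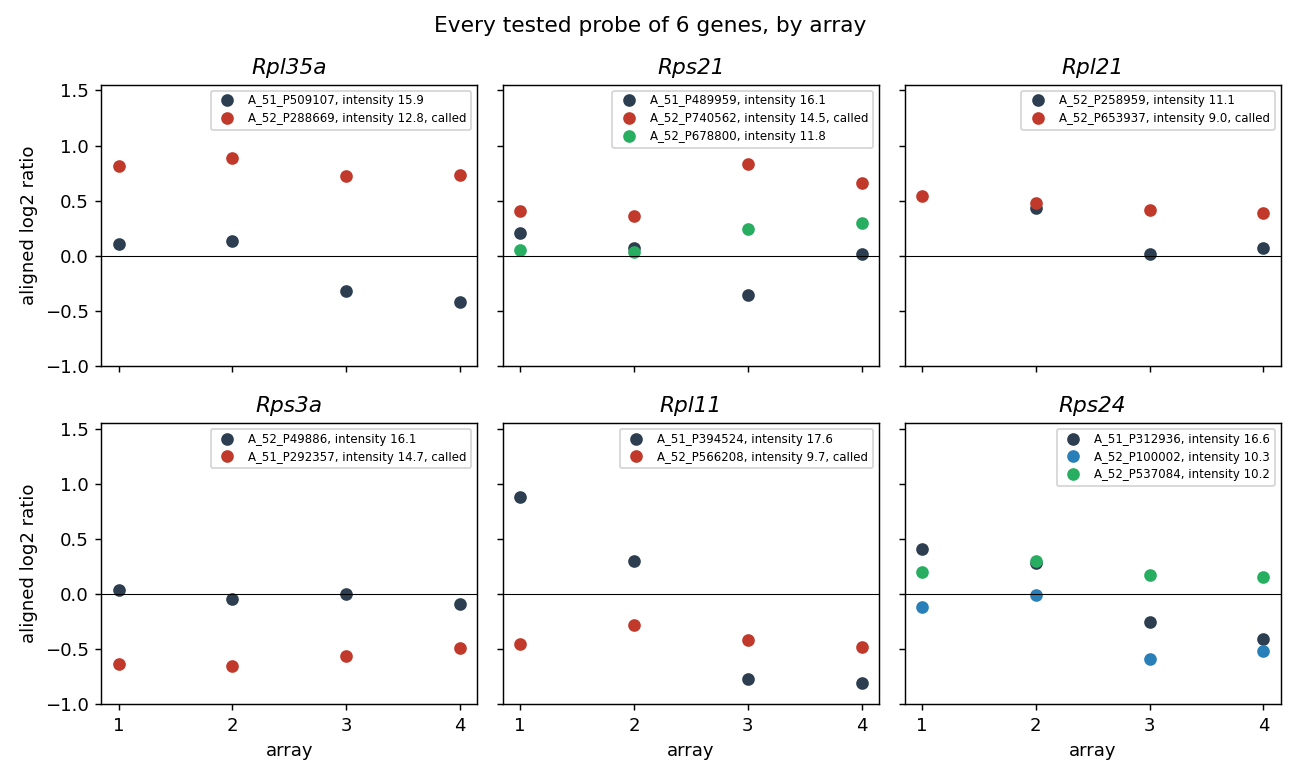
Aligned log2 ratio of every tested probe of Rpl35a, Rps21, Rpl21, Rps3a, Rpl11 and Rps24 on arrays 1 to 4, with the mean log2 intensity of each probe in the legend. Probes that passed limma's test on the labelled replicates are red; in each of the first 5 genes a brighter probe lies nearer 0 in the mean, as for Rpl35a with means of 0.79 and -0.12.

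Opposite signs among the tested probes were found in 14 of the 39 genes. In Rps24, mutated in Diamond-Blackfan anaemia, 2 dim probes from cDNA clones had means of -0.31 and 0.21, and the brightest probe had 0.01 (adjusted p = 0.129, 0.263 and 0.990, limma; with the balanced pairs 4.05e-08, 4.05e-04 and 0.929). The 4 probes of Rpl29 ranged from -0.21 to 0.09, the 3 of Rpl7a from -0.14 (adjusted p = 0.813, limma; 0.0256 with the balanced pairs) to 0.12 and the 3 of Rpl13 from -0.19 to 0.05. The probes of Rps19 had means of -0.02 and 0.20, those of Rps13 -0.15 and 0.07, those of Rps15a -0.07 and 0.09 and those of Rps12 -0.02 and 0.12. In Rpl19, Rpl23a and Rpl22 the probes differed by less than 0.06, and Rpl35a, Rps21 and Rpl7l1, described above, complete the 14. Ribosomal protein genes have many near-identical processed copies in the mouse genome, and which copies a probe binds was not tested. By the same measure Rpsa, a small subunit protein outside the naming rule, had 1 dim probe that passed (mean 0.49, adjusted p = 0.00395, limma) and a brighter one at 0.13 (adjusted p = 0.642, limma).

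Other genes of ribosome production and translation were described by the brightest probe of each gene. The shares set beside them are of all tested probes. With 1 probe a gene, 7.73% of all genes passed on the labelled replicates and 41.8% with the balanced pairs. Mitochondrial ribosomal proteins, which build the separate ribosome of mitochondria, had a higher median than the cytosolic ones, a difference that was not tested. It was 0.11 over 78 genes, 67 of them above 0, against 0.05 over 80 cytosolic genes, 56 of them above 0. The lists differ in brightness, with median log2 intensities of 12.5 for the mitochondrial and 16.5 for the cytosolic genes. The 25 cytosolic probes between 12 and 15 had a median aligned ratio of 0.07. On the labelled replicates 1 mitochondrial gene was called higher and 1 lower, against 5.65% of all tested probes in either direction. With the balanced pairs 34 of the 78 were higher and 1 lower, where 19.4% of all tested probes were higher and 18% lower. Mrps6, a small subunit protein of that ribosome, had 0.40, 0.44, 0.46 and 0.40, a mean of 0.42 (SE 0.09, adjusted p = 0.0109, limma), and its second probe had 0.51 (adjusted p = 0.00291, limma). Mrps12 had -0.29, -0.20, -0.44 and -0.64, a mean of -0.39 (SE 0.10, adjusted p = 0.0259, limma). Both genes kept their sign on all 4 arrays.

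Translation initiation factors (34 genes) had a median of -0.06, with 0 higher and 2 lower on the labelled replicates (5.65% of all tested probes passed) and 4 higher and 9 lower with the balanced pairs (37.5% of all). The 2 genes that passed on the labelled replicates were Eif3a, a subunit of the factor that prepares the small subunit for mRNA, and Eif5b, which joins the subunits. Eif3a had -0.41, -0.38, -0.41 and -0.36, a mean of -0.39 (SE 0.09, adjusted p = 0.0182, limma). Eif5b had -0.33, -0.38, -0.40 and -0.28, a mean of -0.35 (SE 0.09, adjusted p = 0.0340, limma). Elongation factors (9 genes) had a median of -0.04 and other mRNAs with a terminal oligopyrimidine tract (13 genes) one of -0.02, and no gene of either list passed (balanced pairs: 1 higher, 0 lower, and 0 higher, 2 lower).

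Ribosome assembly factors (52 genes) had a median of -0.05, with 0 higher and 2 lower on the labelled replicates and 3 higher and 14 lower with the balanced pairs. Of all tested probes 5.65% passed on the labelled replicates, and with the balanced pairs 19.4% were higher and 18% lower. Ncl, the nucleolar protein nucleolin, had -0.29, -0.41, -0.20 and -0.77 by its brightest probe, a mean of -0.42 (SE 0.10, adjusted p = 0.0131, limma). Its other probes had -0.46 and -0.27. Nol5a, the box C/D protein now named Nop56, had -0.49, -0.24, -0.32 and -0.31, a mean of -0.34 (SE 0.09, adjusted p = 0.0411, limma). RNA polymerase I subunits and factors (14 genes) had a median of 0.01 and growth regulators of ribosome production (19 genes) one of -0.06, and no gene of either passed (balanced pairs: 2 higher, 2 lower, and 2 higher, 6 lower). Of the p53 targets 1 of 13 genes passed, Ccng1, with a mean of -0.45 (SE 0.11, adjusted p = 0.0146, limma). The median of the p53 targets was -0.11. The balanced pairs called 2 of them higher and 6 lower, where 19.4% of all tested probes were higher and 18% lower. Over the 7 lists of translation genes 1 of 218 genes was higher and 5 lower, against 5.65% of all tested probes and 7.73% of all genes with 1 probe a gene. With the scanner's processed signals this became 0 higher and 1 lower, and without array 1, 0 and 0.

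**Figure D4:**
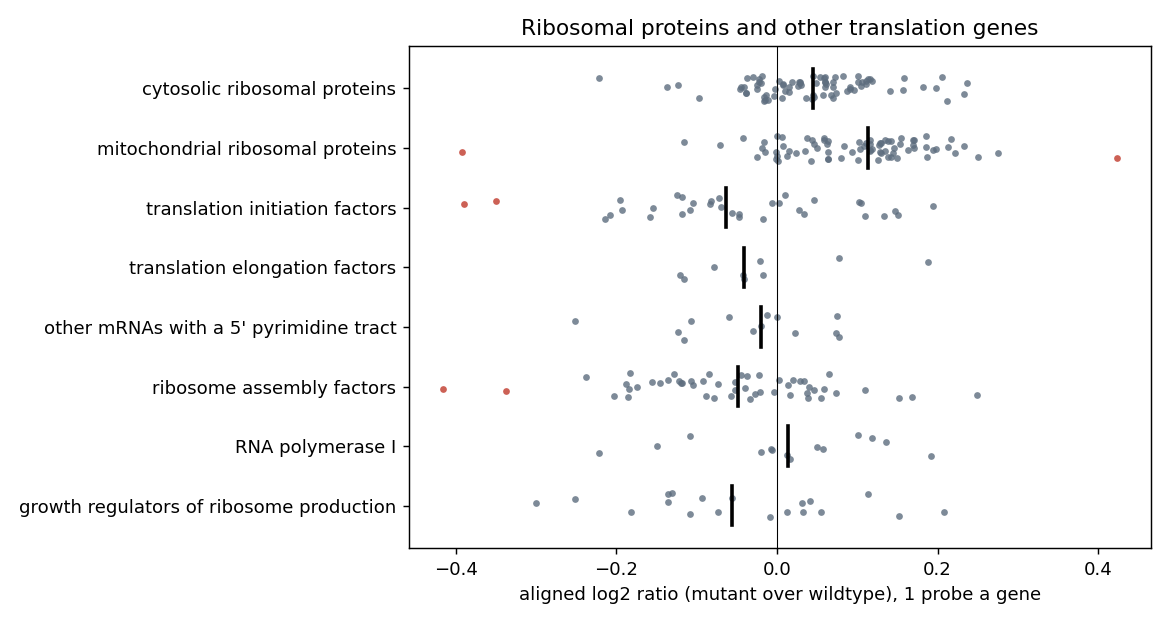
Aligned log2 ratio of the brightest tested probe of each gene in the cytosolic ribosomal proteins and 7 other lists; black lines are medians and red points passed limma's test on the labelled replicates. No cytosolic ribosomal protein gene is red by its brightest probe, and the medians lie between -0.06 (initiation factors) and 0.11 (mitochondrial ribosomal proteins).

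Some markers of other cell types had aligned ratios well outside the range of most ribosomal protein probes. All 8 visceral endoderm markers were lower on the labelled replicates, with a median of -0.80 and a range from -2.04 (Afp) to -0.39 (Apoa4). The 3 tested primitive erythroid globin genes were higher, from 0.72 (Hbb-y) to 1.35 (Hbb-bh1), and Gata1 was not tested. Of 4 endothelial genes Kdr passed, at -0.97. All 6 markers of the tail end of the embryo, the labelled tissue, were tested. Of these, Wnt3a was higher (0.34), and Cdx2 and Cyp26a1 were lower (-0.54 and -0.65). Cdx2 is itself mutated in these embryos, so its ratio is no independent marker of the tissue. T, Tbx6 and Fgf8 did not pass, at 0.15, 0.17 and 0.07 to 0.13. Of the genes listed for the anterior embryo, Otx2 and Six3 were not well above background. Nkx2-5 of the same list was tested, at 0.01 (adjusted p = 0.982, limma), with a low mean log2 intensity of 7.60. The part of tissue makeup in the ribosomal protein ratios was not tested, and in pooled tissue fewer cells of a type and less RNA per cell cannot be told apart.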

How the data were processed

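The authors' scanner files (Agilent Feature Extraction, version 9.5.3, per the submitters' processing notes) hold per-spot intensity values of Cy3 and Cy5, per the file headers. The authors' deposited series table holds log10 ratios, equal (tolerance 1e-05) to the scanner's log ratio for 100% of features on arrays 1 and 3 and to its negative on arrays 2 and 4. Its column medians were 0. Intensities were background-corrected (normexp, offset 50) and loess-normalised within arrays in limma 3.58.1 (R 4.3.3). Control spots had weight 0 in the loess. Control spots and outlier spots (103 to 167 an array) were left out, saturated spots kept, spots of a probe averaged, and arrays turned on Cdx4. Tested probes had to exceed background clearly, by the scanner's flag, in the channel of 1 genotype or both on every array. The 2 arrays of each labelled replicate were averaged and the 2 values fitted with lmFit and eBayes (1 residual and 16.9 prior degrees of freedom, so standard errors are largely pooled over probes), with Benjamini-Hochberg adjustment over 21852 probes at 0.05. All arrays lie on 1 slide, and their number limits the precision.

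Genes were named by the scanner files. RefSeq accessions matched 113 of the 135 member probes, and Rps3a was the only renamed gene. Genes were named in the text by a rule: the 6 largest increases and 6 largest decreases by the brightest probe with 1 sign on all arrays (only 1 decrease existed), a list of members with known roles, genes with probes of opposite sign, the 2 largest passing changes of each other list, and Cdx2 and Cdx4. Others are marked. Members and lists were chosen with earlier results of these data known. On simulated data for this comparison (21852 probes, 200 changed), 100 of 100 changes of log2 1 and 94 of 100 of log2 0.5 were recovered, with 7 false calls. These counts are not given by brightness and do not give the recovery for bright members. The SE was 0.24 for the bright Rpl41 probe and 0.09 for the brightest Rpl31 probe.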

Additional observations from a re-analysis of the deposited data

Results flagged for a closer look

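No named ribosomal protein probe had an array far enough from the other 3 to be singled out by Dixon's test (46 probes examined; in groups of 4, chance singles out about 1 group in 20).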

How the results depend on the processing

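The members' counts of 3 probes higher and 2 lower were unaltered for processed scanner signals, for the series table, either other background correction, the filter in both channels and saturated spots left out. They were 23 and 9 with the balanced pairs, 43 and 9 with the pairs 1 and 4, 2 and 3, 26 and 8 with the dye term, and 0 and 0 as labelled, with median centring, without a filter and with 1 probe a gene. Leaving out 1 array gave 1 to 3 higher and 1 to 2 lower, the lowest without array 1. The members' median of 0.05 was 0.69 with median centring, where all tested probes had a median of 0.23, and -0.15 to 0.25 with either replicate left out (0.01 to 0.10 with 1 array left out). The difference from probes of equal brightness ranged from -0.15 to 0.28 over the replicates, was 0.07 in bands of 1 log2 unit (an alternative chosen after seeing the data) and 0.06 with 20 classes. It was 0.14 with median centring, 0.09 with no background correction, 0.09 with subtracted background, 0.02 as labelled and 0.02 without array 1. With probes of a current ribosomal protein symbol added, also chosen after seeing the data, 4 were higher and 2 lower. The median dye component of 0.19 was 0.87 with median centring, 0.0597 with processed signals and with the series table, 0.17 with subtracted background, 0.16 without a filter, 0.28 with 1 probe a gene, and 0.15 to 0.20 with 1 array left out. For the 7 lists of translation genes, 1 higher and 5 lower became 46 and 34 (balanced pairs), 64 and 50 (pairs 1 and 4, 2 and 3), 59 and 42 (dye term), 0 and 0 (as labelled, median centring, no filter), 0 and 1 (processed signals, series table), and 2 lower with subtracted background. Leaving out 1 array gave 0 to 1 higher and 0 to 2 lower. Their median of 0.01 was -3.0e-03 as labelled, 0.52 with median centring, 0.0154 with processed signals and the series table, and 0.0112 to 0.0247 with a replicate or array left out. As labelled, the called probes of Rpl35a (-0.0152), Rps21 (-0.0307) and Rps3a (0.0240) reversed, as did Rps3a with median centring (0.0136). The cause of these changes was not tested, apart from the averaging of opposed arrays in the labelled directions. No paired analysis was possible because the arrays form 1 group, so no replicate number is shared between groups; the pairing of the genotypes within an array is part of every ratio.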
